A study of Caenorhabditis elegans with 9 samples.

Results

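The C-type lectin genes of Caenorhabditis elegans were followed here across a citrate-induced high-fat condition and its treatment with farrerol, a flavanone found in Rhododendron plants. The members were the protein-coding genes of the deposited table whose name is clec- and a number: 239 of the 46986 genes in it. Of these, 111 were tested because 3 or more of the 9 libraries held them at 1 FPKM or above, together with every other named gene that met this limit, 14730 in all. RNA of whole worms was sequenced in 3 libraries each of 3 groups. OP is the control and its columns are headed OP50, HFD is the citrate-induced high-fat group, and FA combines that condition with farrerol, so that HFD and FA share the high-fat condition. The labels name no strain, age, sex or dose and leave unsaid whether replicate libraries were separate worm cultures. The p-values therefore measure only how far these libraries spread, part of which may be technical. The libraries held 17514542 to 21419867 reads on genes, and in a gene of 1 kilobase a single read was worth 0.0434 to 0.0597 FPKM. FPKM divides a gene's fragments by its length and by the size of the library, so levels of different genes can be compared per length.

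C-type lectins carry a fold known in animals for binding sugars in the presence of calcium, although many members in nematodes are thought not to bind sugars. The family is greatly expanded in C. elegans, where many members are secreted, often by the intestine, and many change when worms meet bacterial or other pathogens, in part downstream of the p38 kinase PMK-1. They are therefore often read as effectors or markers of the intestinal defence response. In whole worms, fewer cells of a type and less RNA per cell cannot be told apart.

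The family was dominated by 1 gene. Expression of clec-63 (WBGene00009394, chromosome II, 12895638 to 12897446, WBcel235), which codes for a C-type lectin domain and a von Willebrand factor A domain, was 1319, 1472 and 1629 FPKM in the OP libraries, 1434, 1115 and 2053 in HFD and 1440.1, 2145 and 1038 in FA. The groups overlapped fully, and HFD against OP gave a log2 fold change of 0.02 with an SE of 0.295 (adjusted p = 0.981); its sign turned when the libraries were rescaled to the same FPKM sum (-0.062) or quantile-normalised (-0.105). This gene held 36.3% to 51.5% of the summed FPKM of all 239 members. All 239 members held 0.474 ± 0.028% of the reads on genes in OP, 0.422 ± 0.079% in HFD and 0.424 ± 0.049% in FA (SD, n = 3 each). The summed level was 3830 ± 192 FPKM in OP, 3462 ± 570 in HFD and 3488 ± 852 in FA (SD, n = 3 each). An exact two-sided permutation test gave p = 0.4 between HFD and OP, 1 between FA and HFD and 0.6 between FA and OP, where 0.1 is the smallest p that 3 libraries against 3 allow.

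Below clec-63 the levels dropped steeply. Only 6 members averaged at least 100 FPKM over the 9 libraries, 36 of the tested members lay between 10 and 100 FPKM, and 69 lay under 10. Of the members not tested, 21 had 0 reads in every library, 107 had some reads, and 19 of these reached 1 FPKM in 1 or 2 libraries; the highest single value was 3.79 FPKM, for clec-101 in OP replicate 1. Among the next most abundant members, clec-50, clec-87 and clec-65 fell in HFD and are described below. The others of the 10 most abundant did not pass: clec-48 averaged 139 ± 14.8 FPKM in OP and 235.03 ± 60.1 in HFD (adjusted p = 0.111), clec-83 129 ± 7.65 and 126 ± 18.3 (0.938), clec-150 129.9 ± 14 and 95.4 ± 23.7 (0.32), clec-1 127 ± 23.4 and 99.9 ± 18.4 (0.318), clec-52 52.8 ± 3.22 and 55.2 ± 8.26 (0.887) and clec-5 36.2 ± 3.53 and 52.9 ± 9.31 (0.132).

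**Figure D1:**
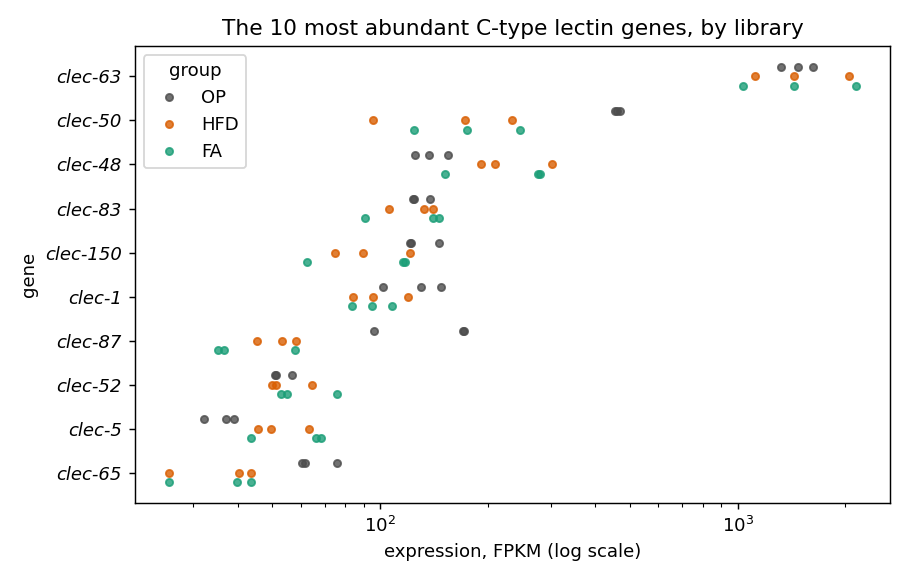
Expression (FPKM, log scale) of the 10 most abundant C-type lectin genes, with 1 point per library coloured by group. The points of clec-63 sit between 1038 and 2145 FPKM with the groups mixed, whereas the OP points of clec-50, 453 to 468 FPKM, lie to the right of all HFD and FA points.

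The first comparison, HFD against OP, asked how the high-fat condition differed from the control. Of the 111 tested members 6 rose and 14 fell in limma, with p-values adjusted by Benjamini-Hochberg across the whole table and a threshold of 0.05, and 91 did not pass. Over all 14730 genes tested, 7.35% were called, 2.74% higher and 4.62% lower. The members' median log2 fold change was -0.09, against 0.01 over all genes. On the log2(FPKM + 1) scale, which understates the change of low genes, 15 of the 20 called members differed by at least 2-fold. At an unadjusted p under 0.05 there were 45 members, against 21.9% of all genes. The OP and HFD libraries did not overlap in 48 members, which is 43.2%, against 29.3% of all genes. All 20 called members were among the 48. Members that reached 1 FPKM only in the group where they were high had to differ to be tested: 3 of the 6 that rose had no OP library at 1 FPKM, and 3 of the 14 that fell had no HFD library there. The counts of higher and lower members were 1 and 4 without OP replicate 2, 3 and 8 with OP replicate 3 or HFD replicate 2 left out, 3 and 10 with HFD replicate 3 left out and 4 and 9 with OP replicate 1 left out. They were 10 and 16 when FA replicate 1, which enters only the filter and the shared spread, was dropped. Over all genes the counts moved too, from 403 and 680 to 110 and 111 without OP replicate 2. They were 165 and 167 without OP replicate 3, and 148 and 178 without HFD replicate 2. Without HFD replicate 3 they were 287 and 365, without OP replicate 1 367 and 500, and without FA replicate 1 488 and 998.

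**Figure D2:**
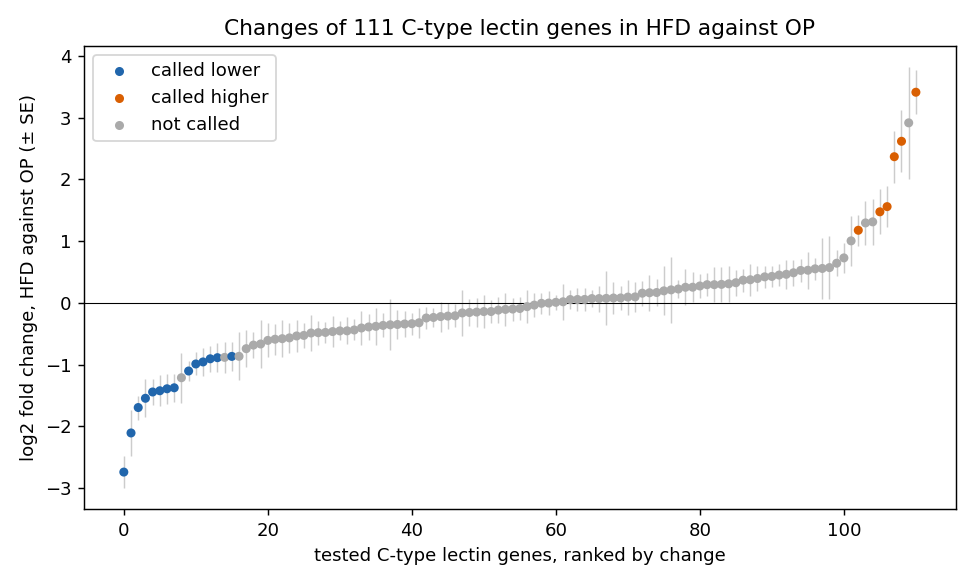
Log2 fold change of HFD against OP (vertical axis, differences of log2(FPKM + 1), bars 1 SE) for the 111 tested C-type lectin genes ranked by change, coloured by call. The values run from -2.74 to 3.41, most lie near 0, and the 6 called higher and 14 called lower sit mainly at the ends.

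The largest increase on the log2(FPKM + 1) scale, which understates the change of low genes, was in clec-3 (WBGene00016577, chromosome II, 3017468 to 3019907), a gene annotated with a C-type lectin and a CUB domain, the latter an extracellular fold often found beside lectin domains in this family. Its level was 2.23, 1.44 and 0.930 FPKM in OP and 15.9, 28.0 and 36.6 FPKM in HFD, a log2 fold change of 3.41 with an SE of 0.35 (adjusted p = 0.000631). The ratio of the FPKM means was 17.5, below the 22.4 of clec-143. Genes whose OP mean lay under a floor of 3 reads, such as clec-163, were given no ratio. All HFD libraries lay far above all OP libraries, and the call held without any 1 library (adjusted p up to 0.00611). Its neighbour clec-2 (WBGene00015198, chromosome II, 3020562 to 3023431), of the same domain makeup, had 5, 4 and 2 reads in OP and 13, 49 and 97 reads in HFD, but did not pass (log2 fold change 1.31, adjusted p = 0.0638); it passed with other settings, among them pseudocount 0.1 and voom, and without HFD replicate 1 or FA replicate 1 or 2 (adjusted p down to 0.0191).

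A pair of genes annotated with C-type lectin and von Willebrand A domains was nearly silent in OP. Expression of clec-143 (WBGene00014063, chromosome II, 10468202 to 10470297) was 0.268, 0.213 and 0.356 FPKM in OP and 2.70, 6.03 and 10.1 FPKM in HFD (log2 change 2.37, SE 0.42, adjusted p = 0.00971). That of clec-163 (WBGene00012661, chromosome III, 10794349 to 10796369) rested on 1, 0 and 4 reads in OP, against 44, 190 and 197 reads in HFD, or 2.27, 8.31 and 8.17 FPKM (log2 fold change 2.62, SE 0.50, adjusted p = 0.014). In both genes HFD replicate 1 was the lowest of the HFD libraries and still lay above every OP library. The call of clec-143 was lost when OP replicate 2 was left out (adjusted p = 0.0515), and that of clec-163 when OP replicate 2 or HFD replicate 2 was (up to 0.0663). On the opposite strand clec-143 shares 157 exon bases with tnc-2, a troponin C gene at 99.7 ± 11.2 FPKM in OP and 145 ± 22.9 in HFD; its own OP level was under 0.4 FPKM in each library.

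Expression of clec-72 (WBGene00021583, chromosome IV, 3944816 to 3947362) was 18.1, 13 and 12 FPKM in OP and 28.8, 49.1 and 58.9 FPKM in HFD (log2 change 1.56, SE 0.34, adjusted p = 0.0228). It was the only called increase in a gene averaging at least 20 FPKM. Expression of clec-17 (WBGene00008477, chromosome I, 12430028 to 12431500), with a CUB domain as in clec-3, was 1.30, 1.71 and 1.22 FPKM in OP and 4.18, 5.03 and 8.56 FPKM in HFD (log2 change 1.48, adjusted p = 0.0369), and that of clec-206 (WBGene00019089, chromosome V, 2000418 to 2004329) was 0.0895, 0.566 and 0.316 FPKM against 2.55, 1.23 and 2.29 FPKM (log2 fold change 1.18, adjusted p = 0.0226). The 3 genes were higher in every HFD library than in any OP library, but their calls depended on single libraries. That of clec-72 was lost without OP replicate 2 or 3 or HFD replicate 2 or 3 (adjusted p up to 0.101), that of clec-17 without any OP library or HFD replicate 2 or 3 (up to 0.121), and that of clec-206 without any OP library or HFD replicate 1 or 3 (up to 0.0766). In 5 of the 6 genes that rose, HFD replicate 1 was the lowest HFD library, and in 4 of the 6 FA replicate 1 was the lowest FA library.

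Among the genes that fell, a pair of neighbours on chromosome V had the largest decreases on the log2(FPKM + 1) scale. Expression of clec-230 (WBGene00007806, 15347847 to 15349144) was 35.4, 22.2 and 23.2 FPKM in OP and 3.38, 3.19 and 2.72 FPKM in HFD (log2 change -2.74, SE 0.26, adjusted p = 0.000456), a mean 8.70 times higher in OP. Its neighbour clec-229 (WBGene00010355, 15340006 to 15341504) was 8.55, 8.60 and 8.60 FPKM in OP and 2.57, 0.872 and 0.643 FPKM in HFD (log2 change -2.11, SE 0.37, adjusted p = 0.00935). Both calls held without any 1 library (adjusted p up to 0.00396 and 0.0491). The deposited annotation lists no domain for either gene.

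Further along the same chromosome, clec-247 (WBGene00013058, 18282897 to 18286527) was read 54, 33 and 39 times in the OP libraries and 0 times in every HFD library. Against a floor of 3 reads per library its OP mean of 2.27 FPKM was at least 11-fold higher than HFD (adjusted p = 0.00113). The abundant clec-50 (WBGene00012253, 19752399 to 19755368), a plain C-type lectin gene and the second of the family by level, was 468, 459.7 and 453 FPKM in OP and 234, 173 and 95.6 FPKM in HFD (log2 change -1.55, SE 0.31, adjusted p = 0.0168). Its OP libraries differed by little, its HFD libraries by over 2-fold, and the groups did not overlap; the call was lost without OP replicate 2 or 3 or HFD replicate 2 (adjusted p up to 0.0736). Directly beside it, clec-49 (WBGene00012251, 19748961 to 19751226), one of the genes studied in defence against Serratia marcescens, was 41, 33.3 and 39.8 FPKM in OP and 43.4, 30.3 and 30.5 in HFD, with groups that overlapped (log2 fold change -0.14, adjusted p = 0.74).

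Of 15 members described in other work, 3 fell (clec-41, clec-67 and clec-85), 1 rose (clec-17), 8 did not pass and 3 were not tested. Over all genes tested, 4.62% were called lower and 2.74% higher. Expression of clec-85 (WBGene00021872, chromosome IV, 2850886 to 2855456), described as dependent on PMK-1, was 29.7, 32.7 and 21.1 FPKM in OP and 12.4, 7.56 and 10.01 FPKM in HFD (log2 change -1.39, SE 0.25, adjusted p = 0.00971). That of clec-67 (WBGene00018971, chromosome IV, 3922165 to 3925039), also described as a PMK-1 target, was 24, 19.9 and 15.7 FPKM against 12.78, 9.51 and 8.11 FPKM (log2 fold change -0.91, adjusted p = 0.0311). That of clec-41 (WBGene00007153, chromosome V, 13134903 to 13138101), studied in defence against Bacillus thuringiensis, was 33.0, 29.4 and 27.5 FPKM against 15.2, 10.03 and 15.6 FPKM (log2 fold change -1.10, SE 0.17, adjusted p = 0.00486). In each, every HFD library lay below every OP library. The call of clec-41 held without any 1 library, that of clec-85 was lost without OP replicate 2 (adjusted p = 0.059) and that of clec-67 without OP replicate 1 or 2 or HFD replicate 2 or 3 (up to 0.121) and under quantile normalization.

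Other members described in infection did not pass. In OP and HFD, clec-60, known from Staphylococcus aureus infection, averaged 42.1 ± 19.6 and 48.0 ± 20.8 FPKM (adjusted p = 0.832), and clec-61 beside it 12.1 ± 10.05 and 3.70 ± 0.576 (0.105), with 1 OP library at 23.6 and the others at 7.67 and 4.99. Of the genes induced by the same bacterium in other work, clec-70 averaged 2.17 ± 1.31 and 4.34 ± 3.98 FPKM (0.578), and clec-71 stayed under the limit for testing with 0.501 and 0.127. Of those studied with B. thuringiensis, clec-4 averaged 10.7 ± 3.89 and 5.19 ± 1.14 FPKM (0.0632) and clec-42 1.54 ± 0.480 and 2.17 ± 0.922 (0.618). Neither clec-39, the partner of clec-49 in work on Serratia, nor clec-38, a regulator of axon growth, was tested: they had at most 11 and 4 reads in any library.

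Another 3 of the genes that fell sat on chromosomes I and II. Expression of clec-87 (WBGene00007709, chromosome I, 10184462 to 10185520) was 96.1, 172 and 170.1 FPKM in OP and 53.1, 45.4 and 58.1 FPKM in HFD (log2 change -1.42, SE 0.25, adjusted p = 0.00933). That of clec-88 (WBGene00019606, chromosome II, 6365722 to 6367002) was 25.7, 39.4 and 42.3 FPKM against 17.4, 15.2 and 19.1 FPKM (log2 fold change -0.99, adjusted p = 0.0127), and that of clec-91 (WBGene00014117, chromosome I, 9126140 to 9127101) was 18.5, 26.8 and 28.0 FPKM against 12.1, 12.2 and 11.39 FPKM (log2 fold change -0.96, adjusted p = 0.0344). In all 3 the lowest OP library was replicate 1 and still lay above the HFD libraries. The call of clec-87 was lost when OP replicate 2 was left out (adjusted p = 0.0563), that of clec-88 also with OP replicate 3 or HFD replicate 2 left out (up to 0.0744), and that of clec-91 with OP replicate 2 or 3 or any HFD library left out (up to 0.146). Over 138 of its 960 exon bases clec-87 overlaps iars-2 on the opposite strand, a tRNA synthetase gene at 17.8 ± 0.398 FPKM in OP and 18.5 ± 1.29 in HFD. Markers of oocytes and eggshell also fell in HFD: 12 of 13 passed, with a median log2 fold change of -1.16, a summed level of 941 to 1427 FPKM in OP and 429 to 558 in HFD, and none at 0. Of 18 sperm markers 6 fell (median -0.70), with sums of 1359 to 1780 FPKM in OP and 759 to 812 in HFD. Called or not, all 13 oocyte and eggshell markers and all 18 sperm markers had log2 fold changes below 0, against 48.1% of all genes tested. Of all genes tested, 4.62% were called lower. When OP replicate 2 was left out, 2 oocyte and 0 sperm markers fell, and when OP replicate 3 or HFD replicate 2 was, 2 and 2. The counts were 5 and 3 with HFD replicate 3 left out, 9 and 4 with HFD replicate 1 and 13 and 6 with OP replicate 1. They were 12 and 10 with FA replicate 1 left out, 12 and 5 with FA replicate 2 and 12 and 9 with FA replicate 3. The part of these tissues in the fall of the lectin genes was not tested.

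The other 4 genes that fell were of lower expression or changed less. Expression of clec-169 (WBGene00009526, chromosome IV) went from 6.52 ± 1.29 to 1.78 ± 0.531 FPKM (adjusted p = 0.00353), that of clec-147 (WBGene00007313, chromosome II) from 2.89 ± 1.09 to 0.463 ± 0.104 FPKM (0.00732), that of clec-175 (WBGene00019950, chromosome IV) from 1.95 ± 0.611 to 0.570 ± 0.120 FPKM (0.0443), and that of clec-65 (WBGene00009396, chromosome II) from 66.0 ± 8.57 to 36.5 ± 9.46 FPKM (0.0491). The call of clec-65 was lost without any 1 OP or HFD library (adjusted p up to 0.169), and that of clec-175 without any HFD library or FA replicate 3 (up to 0.137). Since clec-147, clec-175 and clec-247 reached 1 FPKM only in OP, they could not be tested with an OP library left out.

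**Figure D3:**
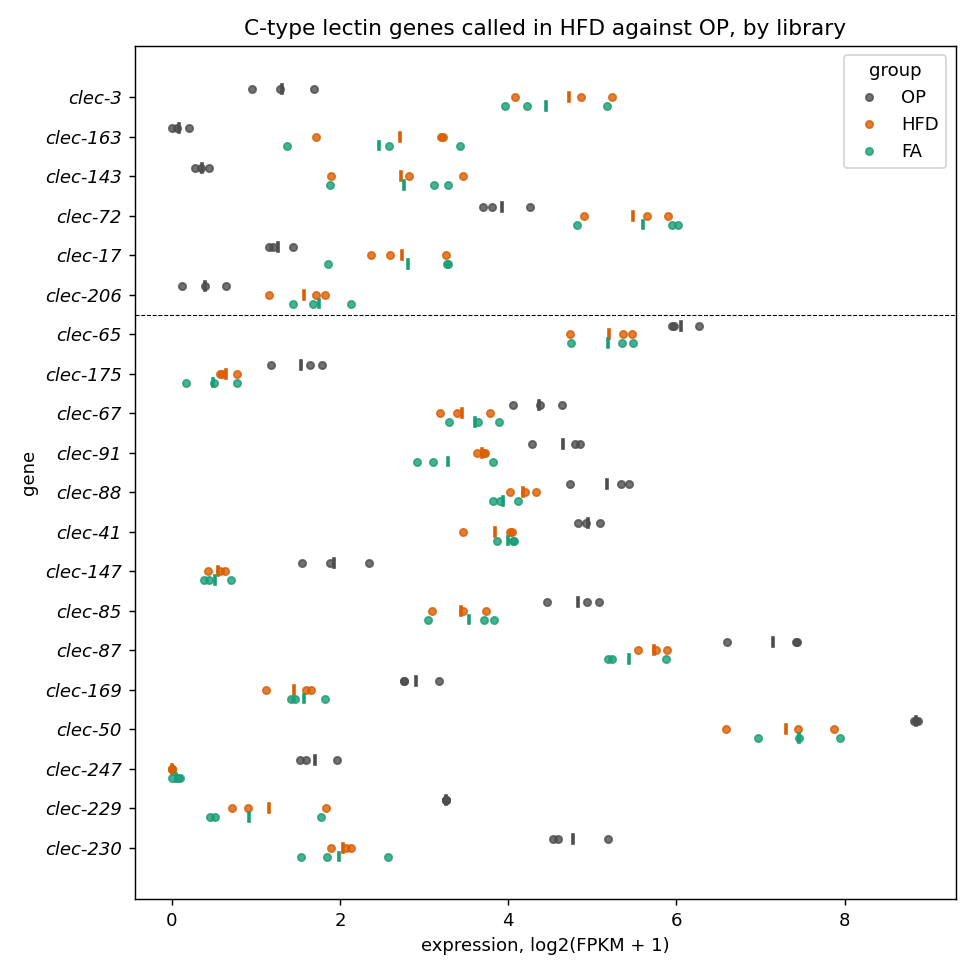
Expression, as log2(FPKM + 1), of the 20 C-type lectin genes called in HFD against OP, with 1 point per library and a bar at the group mean, coloured by group. The HFD and OP points do not overlap in any of the 20 genes, and the FA points lie beside the HFD points rather than the OP points.

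The changes were then set against what the members share by domain and position, with 7.35% of all genes called, 2.74% higher and 4.62% lower. By the domains the authors' deposited table lists, 3 of the 5 tested genes with C-type lectin and von Willebrand A domains were called (2 higher, 1 lower), 3 of 18 with C-type lectin and CUB domains (2 higher, 1 lower), and 9 of 59 with a C-type lectin domain alone (2 higher, 7 lower). Of 21 with no domain listed 5 fell and 0 rose, and of 6 with a von Willebrand A domain alone 0 passed in limma (1 at an unadjusted p under 0.05). Without OP replicate 2, 0 of the 5, 2 of the 18 and 1 of the 59 were called, and 2 of the 21 fell. Over the other libraries left out, the numbers called ran from 1 to 3 of the 5, 2 to 4 of the 18, 3 to 12 of the 59 and 3 to 7 of the 21. The lowest came without HFD replicate 2 or 3 or OP replicate 1 or 3. Of 27 members with a PAN-like domain, a fold of extracellular protein contacts, 1 was expressed well enough to be tested, clec-194, which did not pass (adjusted p = 0.46).

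Most members lie next to each other in the genome. With starts up to 20 kb apart, 162 of the 239 formed 48 runs of 2 or more genes, and the largest run held 13. A run with 3 or more called members was not found. The pair clec-229 and clec-230 fell together. In the run of 12 genes on chromosome IV (3922165 to 4014235), 9 were tested: clec-67 fell, clec-72 rose, and the other 7 did not pass, although clec-74 went from at most 0.159 FPKM in OP to 1.13, 12.3 and 20.1 FPKM in HFD (log2 change 2.92, SE 0.91, adjusted p = 0.0815). The call of clec-74 was gained at pseudocount 0.1, with only the 6 libraries compared and with the replicate number as a block. It also passed without HFD replicate 1 or FA replicate 1. Over all these settings its adjusted p went down to 0.0169. In a run of 5 genes on chromosome II, spanning 10468202 to 10490537, clec-143, clec-60 and clec-61 were tested and the log2 fold changes ran from -1.21 to 2.37. Neighbouring lectin genes can be similar copies, and how reads were shared among copies is not given, so single values within a run are uncertain.

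**Figure D4:**
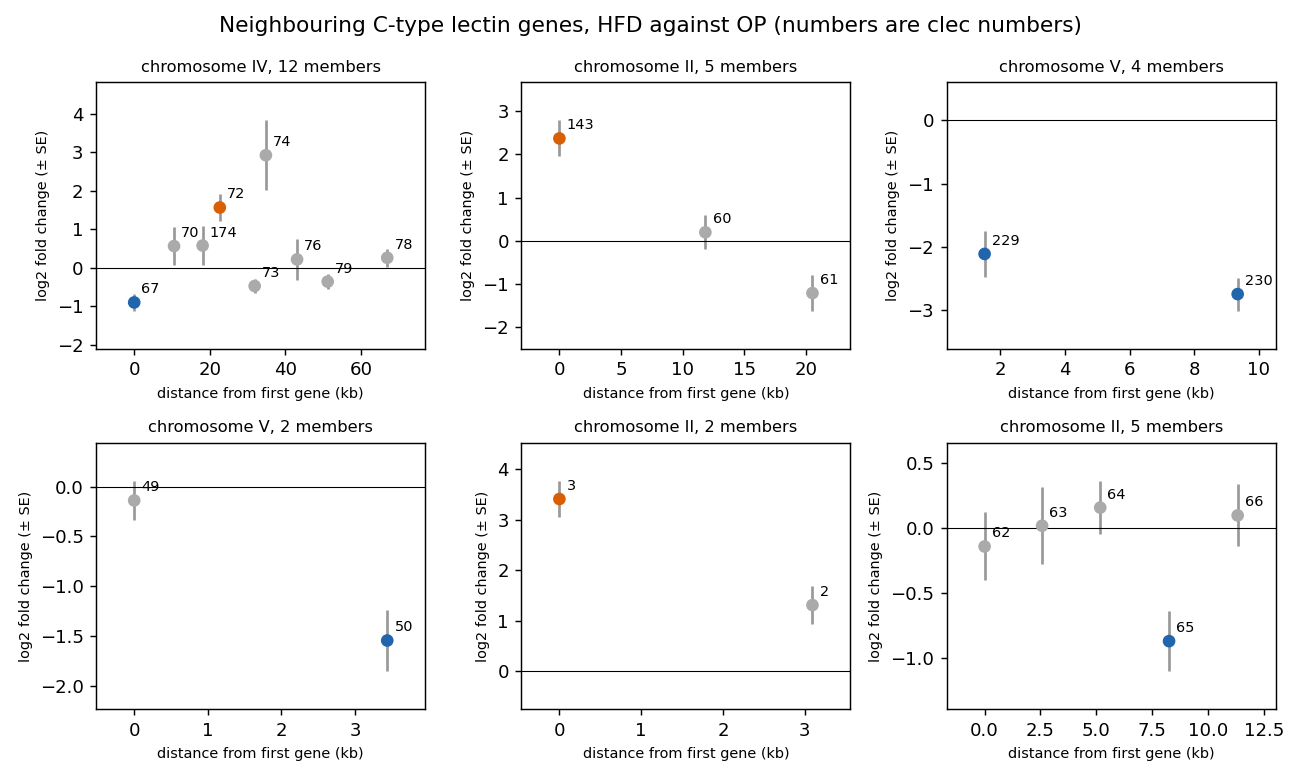
Log2 fold change of HFD against OP (bars 1 SE) for the tested genes in 6 runs of up to 12 of neighbouring C-type lectin genes, against the distance in kilobases from the first gene of the run; orange marks called higher, blue called lower and grey not called. Neighbours differ within most runs, as clec-50 (-1.55) does from clec-49 (-0.14), while clec-229 and clec-230 both fell.

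The second comparison, FA against HFD, asked how worms given farrerol differed from untreated high-fat worms. None of the 111 members passed in limma, 0 passed under voom, and 0.00679% of all genes tested did. At an unadjusted p under 0.05 there were 4 members (2.5% of all genes), and the FA and HFD libraries did not overlap in 5 members (5.1% of all genes): clec-73, clec-197, clec-198 and clec-207 were lower in FA (3.27% of all genes) and clec-90 was higher (1.83%). The median log2 difference was -0.01 and the largest in size was -0.70. On the log2(FPKM + 1) scale, the 95% interval of the difference lay within 2-fold in either direction for 95 of the 111 members. It did so for 17 of the 20 called in HFD against OP. In those 20 the largest FA to HFD difference was 0.41 in size, in clec-91. Members near or under 1 FPKM can hardly reach 2-fold on this scale, so for them the interval says little about the ratio of levels.

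The 5 members with the lowest p all had lower FA means. Expression of clec-207 (WBGene00018096, chromosome V, 2096072 to 2097272) was 1.15, 1.19 and 1.06 FPKM in HFD and 0.475, 0.233 and 0.239 FPKM in FA, without overlap (log2 difference -0.70, interval -1.17 to -0.23, unadjusted p = 0.00739, adjusted p = 1 in limma). In OP it was 1.10, 0.340 and 0.746 FPKM. The others were clec-153, clec-119, clec-123 and clec-79, which differed by -0.54, -0.50, -0.49 and -0.42 on the log2 scale, all with adjusted p = 1; in each of them the groups overlapped. In FA, clec-3 was 17.7, 35.1 and 14.6 FPKM, a log2 difference from HFD of -0.27 with an interval from -1.05 to 0.51, and clec-50 was 246, 175 and 125 FPKM.

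**Figure D5:**
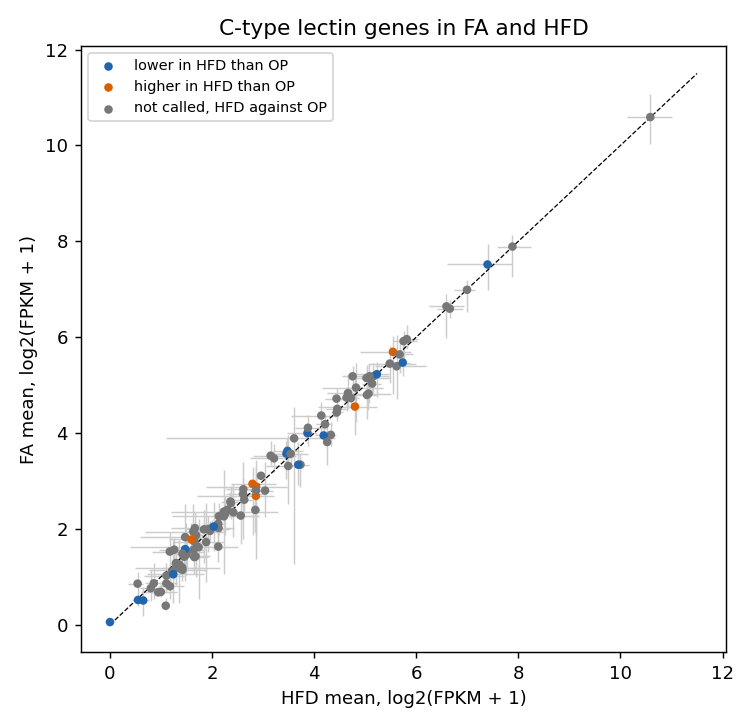
Mean expression in FA against that in HFD, both as log2 of the mean FPKM + 1, for the 111 tested C-type lectin genes; bars span the lowest to highest library, the dashed line marks equal levels, and colours give the call of HFD against OP. The points follow the line from 0 up to clec-63 at the top right, the genes called in HFD against OP included.

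The third comparison, FA against OP, shares the OP libraries with the first. In it 11 members rose and 20 fell, where 14.6% of all genes tested were called, 4.61% higher and 9.96% lower; the groups did not overlap in 50 members (31% of all genes), and 27.7% of all genes had an unadjusted p under 0.05. Because of the shared libraries, the values of both are set side by side as a description. The log2 fold changes in HFD and in FA against OP were 3.41 and 3.15 for clec-3, 2.37 and 2.41 for clec-143, 2.62 and 2.37 for clec-163, 1.56 and 1.67 for clec-72, -2.74 and -2.79 for clec-230, -1.55 and -1.39 for clec-50, -1.42 and -1.72 for clec-87 and -1.10 and -0.95 for clec-41. Among the members called in HFD against OP, the FA calls of clec-17 (without OP or FA replicate 2 or 3), clec-50 (OP replicate 2, FA replicate 2 or 3), clec-65 (any OP library, FA replicate 3), clec-67 (OP replicate 1 or 2, HFD replicate 2, FA replicate 2 or 3) and clec-175 (FA replicate 2) were lost with 1 library left out, with adjusted p up to 0.122. The counts of higher and lower members were 5 and 10 without OP replicate 2 and 6 and 14 without OP replicate 3. They were 5 and 14 without FA replicate 2, and otherwise 8 to 14 and 15 to 25. Over all genes the counts were 679 and 1467 with every library, and 246 and 637 without OP replicate 2. Without OP replicate 3 they were 312 and 760, and without FA replicate 2 308 and 832.

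Of the 31, 11 had not passed in HFD against OP, and 5 of these rose. Expression of clec-2 reached 1.82, 4.74 and 1.96 FPKM in FA from at most 0.186 in OP (adjusted p = 0.0149), and clec-74 reached 1.40, 17.6 and 22.4 FPKM from at most 0.159 (0.0396). That of clec-210 went from 1.41 ± 0.270 to 5.62 ± 3.58 FPKM (0.0328), that of clec-166 from 15.2 ± 3.05 to 25.3 ± 4.0 (0.0237) and that of clec-5 from 36.2 ± 3.53 to 59.4 ± 13.8 (0.0378). Those that fell were clec-153, from 5.96 ± 0.215 to 2.09 ± 1.02 FPKM (0.00537), clec-119, from 9.41 ± 1.31 to 4.26 ± 1.61 (0.00992), clec-123, from 25.4 ± 5.11 to 13 ± 4.53 (0.0177), clec-79, from 16.1 ± 1.61 to 9.12 ± 2.48 (0.0228), clec-4, from 10.7 ± 3.89 to 5.09 ± 0.824 (0.0385), and clec-73, from 27.3 ± 5.54 to 14.6 ± 2.81 (0.0103). Of these calls that of clec-153 held without any 1 library. Those of clec-119 and clec-73 were lost without OP replicate 2 (adjusted p = 0.0536 and 0.0518). The other 8 were lost without OP replicate 2 or FA replicate 2 alike, clec-4, clec-5, clec-74, clec-166 and clec-210 also without OP replicate 1, clec-2, clec-5, clec-74, clec-79, clec-123 and clec-210 without OP replicate 3, clec-4, clec-74, clec-123 and clec-210 without FA replicate 3, clec-5 without FA replicate 1 and clec-74 without HFD replicate 2 (adjusted p up to 0.161). Since FA and HFD did not differ in any of these genes past the threshold, a call in FA alone does not show a difference from HFD.

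Other genes of innate immunity were counted in HFD against OP, where 7.35% of all genes were called. Of 32 tested genes of immune signalling, among them the p38 pathway, 1 rose and 1 fell: zip-2, a bZIP transcription factor of the infection response, from 195 ± 23.9 to 357 ± 21.2 FPKM (adjusted p = 0.00935), and nhr-8, a nuclear hormone receptor, from 14.9 ± 1.29 to 6.23 ± 1.03 FPKM (0.00202). Without OP replicate 2 or 3 the call of zip-2 was lost (up to 0.0645). Of 19 effectors dependent on p38 or induced by infection 6 rose and 4 fell, with the 3 lowest p in the infection response genes irg-3, from 45.7 ± 12.2 to 1117 ± 339 FPKM (7.68e-05), and irg-5, from 15.8 ± 4.01 to 137 ± 63.6 FPKM (0.000668), and in dod-22, which fell from 10.5 ± 2.18 to 2.04 ± 0.326 FPKM (0.000496). Of 13 lysozyme genes 1 rose, ilys-2, from 1.33 ± 0.943 to 19.6 ± 7.93 FPKM (0.00353), and 1 fell, ilys-5, from 415 ± 41.6 to 154 ± 76.0 FPKM (0.0373), a call lost without any OP library or HFD replicate 2 or 3 (up to 0.131). Of 20 genes of saposin-like proteins, which act on membranes, 3 rose and 1 fell; spp-9 went from 7.38 ± 2.84 to 1191 ± 573 FPKM (3e-05) and spp-12 from 2.31 ± 1.16 to 189 ± 136 FPKM (0.00114). The one that fell, spp-17, went from 393 ± 44.7 to 78.6 ± 47.3 FPKM (0.0141), a call lost without OP or HFD replicate 2 (up to 0.0689). Of 12 galectins and related lectins 0 passed in limma, also without any 1 library. Of 5 thaumatin and antibacterial factor genes 2 rose, thn-2 and abf-6, and both calls were lost without OP replicate 2, any HFD library or FA replicate 2. The effector counts were 4 and 2 without OP replicate 2, and 5 or more and 2 or more without any other library.

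The 9 tested intestine markers had a median log2 fold change of -0.02, and 0 of them passed, with 0 without any 1 library; their summed level was 5482 to 6062 FPKM in OP and 5479 to 9722 in HFD. Of the 3 coelomocyte markers, at summed levels of 7.59 to 11 FPKM in OP and 14.8 to 18.3 in HFD, 3 were higher, but 0 without any 1 OP library or HFD replicate 1 or 2, and 1 or 2 without the others. Of the markers of hypodermis, neurons, body wall muscle and pharynx muscle, 1 of 6 fell, 0 of 6 and 0 of 4 passed, and 1 of 3 rose, the last not without any OP library or HFD replicate 1 or 2. Of all genes tested, 2.74% were called higher and 4.62% lower. The part of any of these tissues in the lectin results was not tested.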

How the data were processed

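Per the labels' protocols, total RNA of whole worms was extracted with chloroform and libraries were made with an NEBNext Ultra II kit. The authors deposited 1 table of FPKM values, with build WBcel235 per the submitters' processing notes; no source read here names the aligner, the counter or whether strand was used, so overlapping genes can share reads. OP50 columns were matched by number to the samples titled OP. Each value was multiplied by gene length and divided by the smallest such product above 0 in its library, taken as 1 read. After this, 100% of the values above 0 were whole numbers (tolerance 0.01), which gave the reads. All 239 members lie at the same position in Ensembl release 115. The 52 loci without a gene name, 0.0184% to 0.0293% of the reads, were not tested. Every column holding sample values was used (0 left out).

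Because FPKM is no count, limma 3.58.1 in R 4.3.3 was run on log2(FPKM + 1) with a mean-variance trend, 3 group means fitted to all 9 libraries, tests two-sided and Benjamini-Hochberg adjusted over the 14730 genes that 3 or more libraries held at 1 FPKM or above. Log2 fold changes are on this scale and understate the change of low genes. Every adjusted p in the text comes from it, except where a library left out or another setting is named. The test was tried on simulated data. Members and lists were chosen with earlier results of these data known. Named members were, by rule, called genes by size (up to 12 a direction), the 10 most abundant, the 5 lowest p for FA against HFD, 15 described in other work and runs with 3 or more called genes; of the other immune lists, genes were taken from the 3 lowest p. The members clec-73, clec-90, clec-101, clec-194, clec-197 and clec-198 were named after their values were seen. Genes of like pattern, also in that rule, are not given because OP stands apart from the other groups. Domains were read from the deposited annotation. Replicates of a group differed beyond sampling noise (chi-square per gene 17.5 to 80.3). Alternatives were other pseudocounts, filters, scalings, a spread from only 2 groups, a replicate block, voom on the recovered reads, robust moderation, stricter thresholds and each library left out. No protein or promoter sequence was used here.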

Additional observations from a re-analysis of the deposited data

How the results depend on the processing

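With 6 members called higher and 14 lower in HFD against OP, the counts were 2 and 8 at an adjusted p under 0.01. They were 6 and 9 with at least 2-fold change on the log2(FPKM + 1) scale, used for each such count here. With no filter on low values, which tests more genes, they were 2 and 11, and with the spread of only the 6 libraries compared 10 and 16. For FA against OP, with 11 and 20, they were 4 and 12 at an adjusted p under 0.01, 9 and 13 with at least 2-fold change, and 6 and 18 with no filter. Leaving out 1 library gave 1 to 10 higher and 4 to 16 lower in HFD against OP, and 5 to 14 and 10 to 25 in FA against OP. Over all genes these ranges were 110 to 488 and 111 to 998, and 246 to 802 and 637 to 1748. The median of the members in HFD against OP ran from -0.101 to 0.019 with 1 library left out, above 0 without OP replicate 1, and from -0.146 (rescaled) to -0.046 (pseudocount 5) under the other settings. No member passed in FA against HFD under any alternative run. With the replicate number as a block the counts were 8 and 11 in HFD against OP and 14 and 18 in FA against OP. Same-numbered libraries did not all vary together (correlations of their deviations -0.23 to 0.30). The highest, 0.30, was between HFD replicate 1 and FA replicate 1. Whether any same-numbered libraries shared a day or batch is not given in the labels and cannot be told from these correlations. Of the 20 calls in HFD against OP, those of clec-3, clec-41, clec-169, clec-229 and clec-230 held without any 1 library; clec-147 and clec-247, testable only with all OP libraries, held without each HFD or FA library. With no filter the calls of clec-17, clec-50, clec-65, clec-67, clec-72, clec-91, clec-163, clec-175 and clec-206 were lost, as were that of clec-17 at pseudocount 5 and those of clec-65 and clec-175 at pseudocount 0.1 and those of clec-65, clec-91 and clec-175 with the block. In FA against OP, calls lost apart from single libraries were those of clec-4, clec-5, clec-17, clec-65, clec-67, clec-74, clec-79, clec-123, clec-166 and clec-210 with no filter, clec-74 and clec-210 at pseudocount 5, clec-74 under voom and robust moderation, clec-4 and clec-67 under quantile normalization, clec-4 with only the 6 libraries, clec-4 and clec-65 with the block and clec-79 rescaled. Single genes were followed under the alternatives only if named by rule, with clec-73 added. Among these, in HFD against OP, clec-2, clec-4, clec-48, clec-74, clec-119, clec-153 and clec-210, not called, passed under 1 or more alternatives (adjusted p down to 0.00917, clec-210 with only the 6 libraries). Other members were not followed gene by gene, so signs may have turned or calls been gained in them too. Among those followed, signs turned only in genes that did not pass in HFD against OP: in clec-63 (-0.062 rescaled, -0.105 quantile, -0.215 to 0.225 with 1 library left out, below 0 without HFD replicate 3 or OP replicate 1), clec-52 (-0.024 rescaled, -0.064 to 0.122, below 0 without HFD replicate 3), clec-60 (-0.131 to 0.544, below 0 without HFD replicate 3 or OP replicate 2), clec-70 (-0.017 to 1.039, below 0 without HFD replicate 2) and clec-83 (-0.117 to 0.087, above 0 without OP replicate 3 or HFD replicate 2). The cause of these shifts was not tested. Depth limits the low members: at 3 reads a gene of 1 kilobase has 0.13 to 0.179 FPKM.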
